A study of Mus musculus with 17 samples.

Results

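Messages of 5 genes that mark promyelocytes and their progenitors were followed through 17 libraries of mouse common myeloid progenitors: Mpo, Elane, Prtn3, Ctsg and Ms4a3. The members were taken by name for what they encode, with no threshold on a measured value but with earlier results of these data known. They are 5 of the 24416 genes in the files, each had counts in all 17 libraries, and 5 of 5 passed the filter that left 13558 genes for testing.

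Myeloperoxidase, the product of Mpo, uses hydrogen peroxide and chloride to make hypochlorous acid. Elane, Prtn3 and Ctsg encode the serine proteases neutrophil elastase, proteinase 3 and cathepsin G, which are stored beside it. All these proteins are packed into the primary, or azurophil, granules when a granulocyte-monocyte progenitor becomes a promyelocyte, and transcription of their genes ends before the specific and gelatinase granules of later neutrophils are made. Ms4a3 encodes a membrane-spanning protein of granulocyte-monocyte progenitors and is widely used to mark that stage.

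The study examined RNA of flow-sorted common myeloid progenitors from fetal liver and adult bone marrow, and its title names Lin28b, an RNA-binding protein of fetal progenitors, and let-7, the microRNA family whose maturation it blocks. Fetal liver gave a wild-type group (n = 3), a group labelled Lin28b KO (n = 3) and an inducible Let-7 library (n = 1), all on C57BL/6J. Adult bone marrow gave a wild-type group (n = 3), an inducible LIN28B group (n = 2) and an inducible LIN28B group under vavcre (n = 2), all on C57BL/6J, and a Let-7b/c knock-out group (n = 3) on a strain labelled albino black 6. According to the design text, vavcre limits the induction to blood-forming cells. The labels give doxycycline exposure as the treatment of all 17 samples, wild-type and knockout ones included, with no dose or duration stated. Nothing in the labels tells whether libraries of 1 group were made from different animals; the p-values therefore reflect library-to-library spread, part of which may be technical.

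Libraries held 14957111 to 28165554 reads counted on transcripts. Levels are CPM, read counts scaled to the effective size of each library, given by library or as mean ± SD. Overlap of libraries between compared groups is described for the members only. The share of all genes without overlap was not counted, and groups this small can part by chance. The quasi-likelihood test of edgeR, two-sided, gave the p-values, which were adjusted over all 13558 genes; "called" means an adjusted p under 0.05. The level of Lin28b was 104 ± 12.9 CPM in the libraries labelled Lin28b knockout and 104 ± 17.6 CPM in the wild type of the same tissue (n = 3 each), so these are named by their label throughout. Counts over a whole transcript cannot show the loss of single exons. Those libraries also stood apart in content: the 30 erythroid markers summed to between 54381 and 62805 CPM in them against 1111 to 1512 CPM in wild-type fetal liver, and Hba-a1, Hbb-b1 and Add2 were at 0. The 18 stem and multipotent progenitor markers summed to 108 to 119 CPM against 819 to 855 CPM. Of the genes used to sort such cells, Kit, which has 2 transcripts in the files, was at 0 counts in every library and cannot serve as a check. Cd34, also with 2 transcripts, so that its level leaves out reads shared between them, averaged 1.02 CPM in the libraries labelled Lin28b knockout, 5.63 CPM in wild-type fetal liver and 7.97 CPM in wild-type bone marrow. The lineage marker Cd3e stayed under 1 CPM in every group mean.

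Each member is counted through 1 RefSeq transcript, so reads shared between transcripts of a gene play no part in its value. In GRCm38.p6 Mpo (NM_010824, 2750 bases) lies on chromosome 11 from 87793784 to 87804412. Prtn3 (NM_011178, 1025 bases) lies on chromosome 10 from 79879667 to 79883174, and Elane (NM_015779, 984 bases) follows it from 79886312 to 79888216, after a gap of 3138 bases. Ctsg (NM_007800, 1002 bases) lies on chromosome 14 from 56099885 to 56102574, and Ms4a3 (NM_133246, 1010 bases) on chromosome 19 from 11629499 to 11640851.

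The promoters of Elane and Prtn3 are shown in full because the levels of these 2 neighbouring genes parted in several groups. They are the 250 bases before the annotated start in GRCm38.p6, from RefSeq, at chr10:79886062-79886311 and chr10:79879417-79879666, both on the plus strand. The capitals mark GGAAGT, the core bound by ETS family factors such as PU.1, the master regulator of myeloid genes.
Elane: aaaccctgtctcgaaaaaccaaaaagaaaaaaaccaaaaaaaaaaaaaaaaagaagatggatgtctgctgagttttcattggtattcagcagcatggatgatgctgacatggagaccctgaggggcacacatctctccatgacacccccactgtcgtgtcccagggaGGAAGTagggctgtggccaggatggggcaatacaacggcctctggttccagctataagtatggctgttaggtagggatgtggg
Prtn3: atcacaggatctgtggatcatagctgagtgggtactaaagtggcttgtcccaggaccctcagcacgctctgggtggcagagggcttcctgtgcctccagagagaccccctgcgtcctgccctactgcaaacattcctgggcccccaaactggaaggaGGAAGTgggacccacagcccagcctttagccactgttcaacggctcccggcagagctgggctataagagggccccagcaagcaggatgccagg
For the other members a window of 60 bases around the same letters shows how their flanks differ, at chr11:87793535-87793594 on the plus strand for Mpo, chr14:56102747-56102806 on the minus strand for Ctsg and chr19:11640874-11640933 on the minus strand for Ms4a3.
Mpo: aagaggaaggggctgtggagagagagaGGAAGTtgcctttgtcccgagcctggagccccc
Ctsg: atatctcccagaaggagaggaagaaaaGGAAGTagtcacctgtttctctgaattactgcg
Ms4a3: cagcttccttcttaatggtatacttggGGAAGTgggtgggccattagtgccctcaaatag

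GGAAGT was found on either strand in 5 of 5 member promoters and in 20% of 27025 promoters of the same length. It began 83 bases before the start of Elane, 93 before Prtn3, 222 before Mpo, 205 before Ctsg and 55 before Ms4a3. The longer AGGAAGT, which contains it, was present in 4 of 5 and in 7.8% of all promoters, with Ms4a3 lacking it. Of the other motifs searched on both strands, the Myb core AACNG stood in 4 members and in 74.1% of all promoters. The C/EBP half-sites joined as TTNNGNAA stood in 1 member, Ms4a3, and in 36.9% of all, and the Runx core TGNGGT in 1, Ctsg, and in 39.9%. The motifs were chosen with the sequences in view, and a match describes letters, not binding.

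Mpo was by far the most abundant member, and its level changed least across the groups together with that of Prtn3. Per kilobase of transcript, group levels ran from 1471 to 6131 CPM for Mpo, from 264 to 1298 for Prtn3, from 49.6 to 371 for Ctsg, from 18.1 to 768 for Elane and from 7.63 to 362 for Ms4a3. Between the highest and the lowest mean of the 6 replicated groups the level of Mpo differed 3.65-fold and that of Prtn3 3.57-fold, against 7.48-fold for Ctsg, 14.9-fold for Ms4a3 and 42.3-fold for Elane. The depth behind these values was ample: single libraries held 53989 to 434993 counts of Mpo, 4636 to 34332 of Prtn3, 839 to 8061 of Ctsg, 245 to 19257 of Elane and 104 to 9429 of Ms4a3. The 5 genes together took 0.355% to 1.98% of a library's counts.

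**Figure D1:**
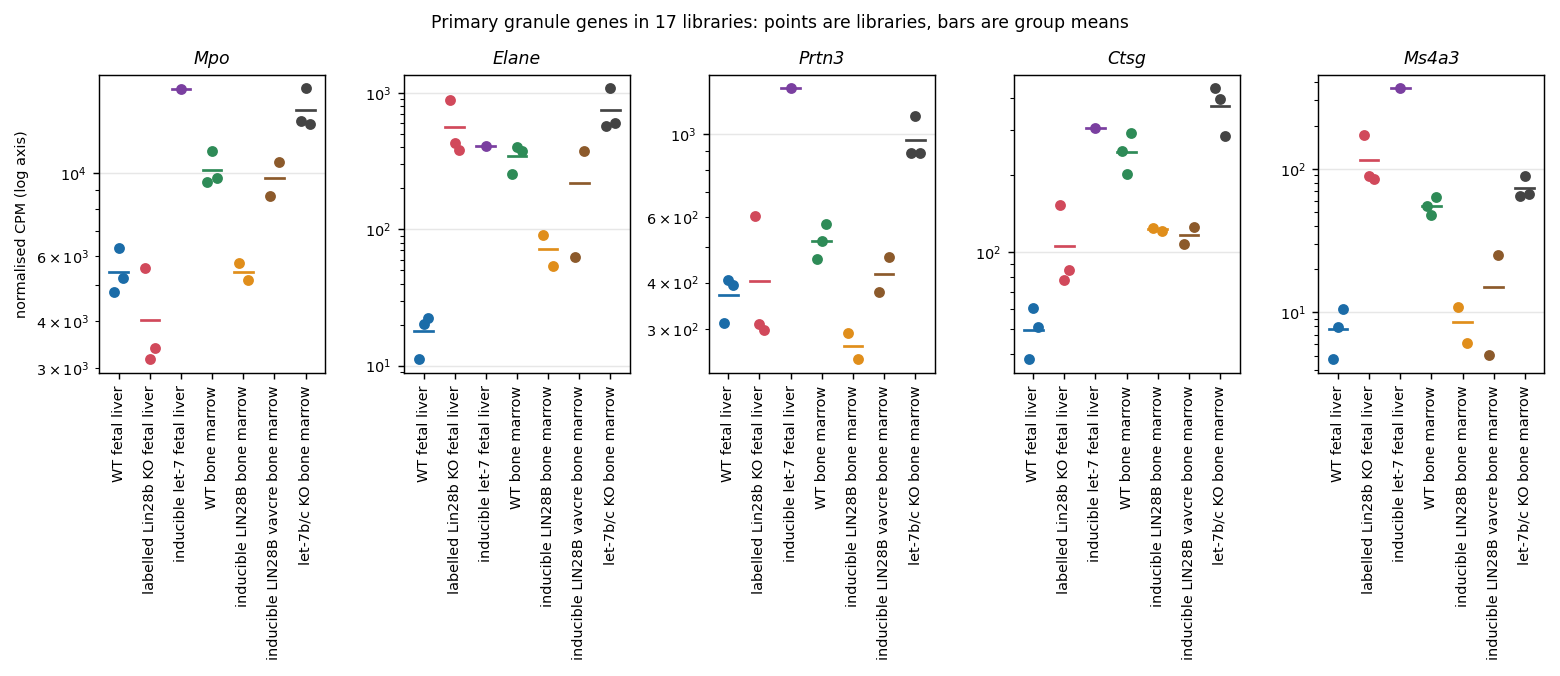
Normalised CPM (log axis) of the 5 genes in each of the 17 libraries, by group; points are libraries and bars are group means. Elane spans 11.1 to 1089.9 CPM and Ms4a3 4.72 to 365 CPM, while Prtn3 stays between 249 and 1331 CPM.

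In wild-type fetal liver progenitors 4 of the primary granule messages were lower than in wild-type adult bone marrow progenitors. Mpo was 1.88-fold, Ctsg 4.97-fold, Ms4a3 7.23-fold and Elane 19.4-fold lower (n = 3 and 3). Called lower were 4 of 5 members, against 13.2% of all genes tested, and the median log2 difference was -2.31 for the members and -0.08 for all genes tested. In bulk RNA, fewer cells that carry a message and less message per cell cannot be told apart, and in this comparison the tissue and the stage of development changed together.

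Elane, the elastase gene, stood at 11.1, 20.2 and 22.2 CPM in the fetal liver libraries and at 256, 400.1 and 377 CPM in the bone marrow libraries. The groups were far from overlapping, and the log2 difference was -4.28 (SE 0.579, edgeR adjusted p = 6.44e-05). Ms4a3, the progenitor marker, stood at 4.72, 7.86 and 10.5 CPM against 55.0, 47.6 and 63.4 CPM. Every fetal library was below every adult one, with a log2 difference of -2.85 (SE 0.468, edgeR adjusted p = 0.000321). Ctsg, the cathepsin G gene, stood at 38.1, 60.1 and 50.8 CPM against 247, 202 and 291 CPM, again without overlap, at -2.31 (SE 0.246, edgeR adjusted p = 7.29e-06). Mpo, the peroxidase gene, stood at 4806, 6296 and 5221 CPM against 9493, 11443 and 9687 CPM, without overlap, at -0.91 (SE 0.178, edgeR adjusted p = 0.00132). Prtn3, the proteinase 3 gene, stood at 313, 406 and 394 CPM against 463, 519 and 575 CPM. Its groups did not overlap either, but the difference of -0.48 (SE 0.215) was not called (edgeR adjusted p = 0.114).

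The fourth granule serine protease, Prss57, stood at 6.97 ± 1.27 CPM in fetal liver and 36.0 ± 0.935 CPM in bone marrow (log2 difference -2.36, edgeR adjusted p = 1.08e-05). Among 19 tested genes of other azurophil and lysosomal granule contents, 10 fell and 3 rose, where 13.2% of all genes fell and 13.9% rose; the protease Ctsb fell by 0.58 on the log2 scale. Of 14 tested genes that activate, pack or inhibit granule proteases, 8 fell and 2 rose. Slpi, a secreted inhibitor of elastase and cathepsin G, fell by 6.38 and the serpin Serpina3g fell by 1.83 on the log2 scale. Ctsc, the dipeptidyl peptidase that activates these proteases, was one that rose, to 147 ± 8.79 CPM from 104 ± 8.97 CPM (log2 difference 0.51, edgeR adjusted p = 0.0271). Of 24 tested genes of granulocyte-monocyte progenitors and promyelocytes outside the members, 13 fell and 1 rose (median log2 difference -0.98), among them Nkg7, a cytotoxic granule protein (-2.85), the lectin receptor Clec12a (-1.97) and Plac8 (-1.49).

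Genes of the later granules differed in the same comparison: 13 of 18 tested fell and 0 rose, with a median log2 difference of -4.74. Ltf, lactoferrin of specific granules, stood at 4.62 ± 4.93 CPM in fetal liver and 141 ± 63.8 CPM in bone marrow. Summed over the 20 listed genes, later granule messages came to 34.8 to 64.8 CPM in fetal liver and 577 to 1262 CPM in bone marrow, with S100a9 and Adam8 at 0 in both. Markers of some other lineages were lower too. Of the megakaryocyte markers 9 of 14 tested fell and 0 rose, and of the monocyte markers 8 of 17 fell and 2 rose. Among eosinophil, basophil and mast cell markers 7 of 18 fell and 1 rose. Lymphoid markers went the other way: 4 of 15 tested rose and 0 fell, where 13.9% of all genes rose and 13.2% fell. The lymphoid list summed to 171 to 213 CPM in fetal liver and 83.2 to 89.7 CPM in bone marrow. Dntt, Cd8a, Ebf1 and Bcl11b were at 0 in both. In fetal liver and bone marrow the megakaryocyte list summed to 455 to 488 and 840 to 1025 CPM, with Treml1 at 0 in both. The monocyte list summed to 438 to 494 and 555 to 655 CPM, with Ctss and Lgals3 at 0 in both. The eosinophil, basophil and mast cell list summed to 390 to 472 and 1025 to 1106 CPM, with Cd200r3, Tpsb2 and Cma1 at 0 in both. The part of these other cells in the differences of the primary granule genes was not tested. For the 18 tested transcription factors of granulocyte and monocyte commitment the median log2 difference was -0.007. Near the shares of all genes (13.9% rose and 13.2% fell), 3 of these factors rose and 2 fell. Those that fell were Cebpe, a factor of late promyelocytes (-1.52, edgeR adjusted p = 0.0452), and Myb (-0.71, adjusted p = 0.0482), while Spi1, which encodes PU.1, stood at 243 ± 13.6 CPM in fetal liver and 194 ± 10.1 CPM in bone marrow (0.32, edgeR adjusted p = 0.0501). Gfi1 and Irf8, with 2 transcripts each in the files, stood under 1 CPM in both tissues, where reads shared between transcripts are not counted, and Cebpa, Cebpb and Runx1, which have 3 to 5 transcripts each in the files, were at 0 counts in every library.

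In the fetal liver libraries labelled Lin28b knockout the primary granule genes split: Elane was 31.9-fold, Ms4a3 15.03-fold and Ctsg 2.12-fold higher than in wild-type fetal liver (n = 3 and 3), while Mpo and Prtn3 were not called. Called higher were 3 of 5 members, against 20.8% of all genes tested, and the median log2 difference was 1.08 for the members and 0.00 for all genes. The wild-type fetal liver libraries are the same as in the comparison with bone marrow.

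Elane stood at 889, 427 and 382 CPM in labelled libraries 3, 6 and 8, against 11.1 to 22.2 CPM in the wild type. There was no overlap, and the log2 difference was 4.99 (SE 0.596, edgeR adjusted p = 5.75e-06). Ms4a3 stood at 171, 89.2 and 84.8 CPM against 4.72 to 10.5 CPM, without overlap, at 3.91 (SE 0.483, edgeR adjusted p = 8.33e-06). Ctsg stood at 152, 77.9 and 84.9 CPM against 38.1 to 60.1 CPM, without overlap, at 1.08 (SE 0.240, edgeR adjusted p = 0.00174). For Mpo the labelled libraries held 5571, 3167 and 3399 CPM against 4806 to 6296 CPM. The groups overlapped through labelled library 3, and the difference of -0.43 (SE 0.177) was not called (edgeR adjusted p = 0.0634); without that library it was -0.73 (edgeR adjusted p = 0.000569). Prtn3 held 604, 309.7 and 298 CPM against 313 to 406 CPM, overlapping, at 0.12 (SE 0.215, edgeR adjusted p = 0.683), and at -0.28 without labelled library 3 (adjusted p = 0.131). Labelled library 3 was the highest of its group for each of the 5 genes.

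Later granule genes were also higher in these libraries: 17 of 18 tested rose and 0 fell, with a median log2 difference of 6.39. Their sum was 4462, 2077 and 2282 CPM in labelled libraries 3, 6 and 8, so library 3 was highest here too. Lcn2, a siderophore-binding protein, was 254-fold and Cd177, a neutrophil surface protein, 116-fold higher. The 18 tested transcription factors had a median log2 difference of -0.44. Of them 2 rose and 7 fell, where 20.8% of all genes rose and 23% fell. Cebpe rose from 3.08 ± 0.814 to 30.8 ± 10.6 CPM (log2 difference 3.32, edgeR adjusted p = 0.000150). Spi1 fell from 243 ± 13.6 to 107 ± 23.5 CPM (-1.19, edgeR adjusted p = 7.61e-07), and Myb fell by 1.10 on the log2 scale. Of 14 tested protease handling genes 7 rose and 4 fell, where 20.8% of all genes rose and 23% fell; the cystatin Stfa1 rose 96.2-fold, and Srgn, the proteoglycan that holds granule proteins, fell from 402 ± 37.3 to 243 ± 62.9 CPM. Other granule contents rose in 8 and fell in 4 of 19, with Ctsb 12.1-fold and Prss57 3.70-fold higher. The erythroid markers rose in 22 of 23 tested, the eosinophil, basophil and mast cell markers in 12 of 18 with 3 lower, the megakaryocyte markers in 11 of 14 with 2 lower, and the hepatocyte markers in 14 of 15, with 1 of the latter lower; the 18 hepatocyte markers summed to 502 to 1608 CPM against 123 to 132 CPM, with Serpina1a and Ahsg at 0. The eosinophil, basophil and mast cell list summed to 383 to 481 CPM against 390 to 472 CPM, with Cd200r3 at 0, and the megakaryocyte list to 1147 to 1904 CPM against 455 to 488 CPM, with Treml1 at 0. The part of these other cells in the members' values was not tested.

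**Figure D2:**
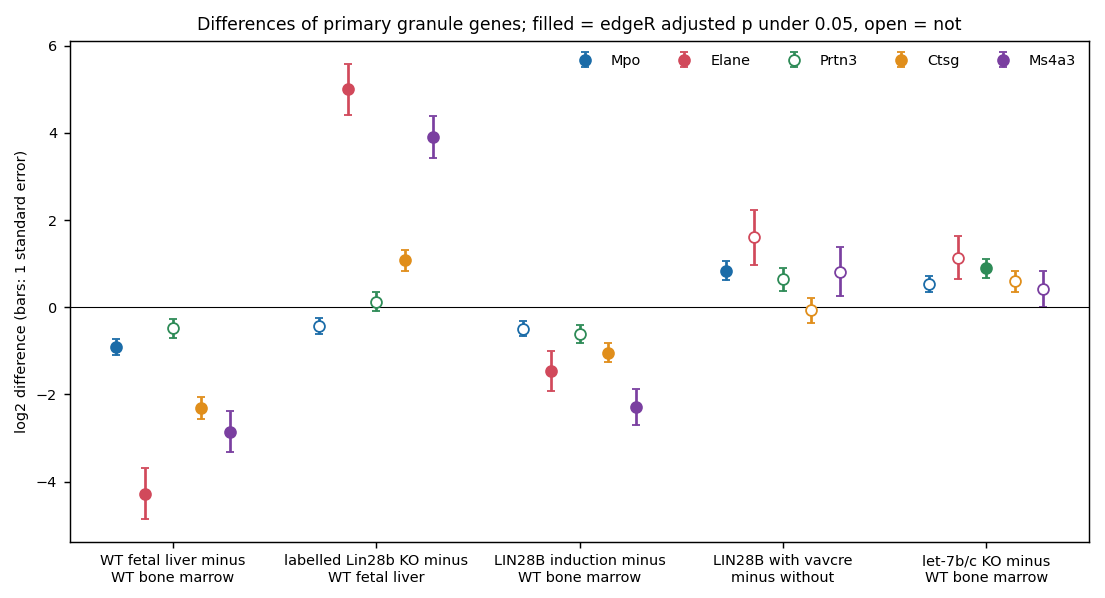
Fitted log2 differences of the 5 genes in 5 comparisons, with bars of 1 standard error; filled points have an edgeR adjusted p under 0.05 and open points do not. Elane and Ms4a3 have the widest swings, from -4.28 to 4.99 and from -2.85 to 3.91, and Prtn3 the narrowest, from -0.62 to 0.90. The ends of the Elane and Ms4a3 swings rest on the same wild-type fetal liver libraries, which enter those comparisons with opposite sign.

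The inducible Let-7 fetal liver library held more of each of the 5 messages than any wild-type fetal liver library, but it is a single library, so the difference has no replicate check and no test. Mpo stood at 16862 CPM (95% exact Poisson interval 16812 to 16912), 3.10-fold over the wild-type mean. Ms4a3 stood at 365 CPM (358 to 373), 47.4-fold over that mean and the highest level in any of the 17 libraries. Elane stood at 409 CPM (401 to 417), 22.9-fold over the mean, and Ctsg at 305 CPM (298 to 312), 6.14-fold. Prtn3 stood at 1331 CPM (1317 to 1345), 3.59-fold over the mean and again the highest of all libraries. These intervals cover counting error only, since the reads carry no molecular identifiers. All 5 members were at least 2-fold above the wild-type mean and above all 3 wild-type libraries, which held for 12% of the 7066 genes at 10 CPM or more. The fold of Ms4a3 exceeded that of 99.8% of those genes and that of Mpo 95.4%.

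This library differed from the libraries labelled Lin28b knockout in which other genes were high. S100a9 and Adam8 were at 0 in every group. In this library the later granule messages summed to 136 CPM, with Orm1, Arg1, Slc11a1 and Padi4 also at 0. Of that sum 124 CPM came from Hp, which is also on the progenitor list, while Ltf stood at 0.465 CPM, Ngp at 0.969 CPM and Lcn2 at 0.116 CPM. Cebpe stood at 2.05 CPM and Spi1 at 417 CPM, against 228 to 254 CPM for Spi1 in wild-type fetal liver. Erythroid markers summed to 530 CPM, with 9 of 30 at 0 against 8 in wild-type fetal liver. Monocyte markers summed to 1117 CPM against 438 to 494 CPM in wild-type fetal liver, with 7 of 20 at 0 against 3. Among the 7 were Ctss and Lgals3, at 0 in every group, and Irf8, which had 58 counts in all 17 libraries together. Fcgr3, an Fc receptor that is high on granulocyte-monocyte progenitors, stood at 114 CPM against 17.2 ± 4.59 CPM, and Cd34 at 14.3 CPM against 5.63 ± 0.916 CPM. Nkg7 stood at 388 CPM against 51.2 ± 6.70 CPM, Serpinb1a, a cytosolic inhibitor of elastase, proteinase 3 and cathepsin G, at 1123 CPM against 336 ± 39.1 CPM, and Prss57 at 31.9 CPM against 6.97 ± 1.27 CPM. Fcgr3, Nkg7, Serpinb1a and Prss57 were chosen after their values were seen. As whole lists, progenitor genes summed to 6337 CPM against 2838 to 3230 CPM in wild-type fetal liver. Other granule contents summed to 4080 against 2688 to 2936 CPM, and protease handling genes to 2861 against 1440 to 1553 CPM. Of these lists Dmkn, Bpi, Stfa2 and Rab27a were at 0 here but not in wild-type fetal liver.

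**Figure D3:**
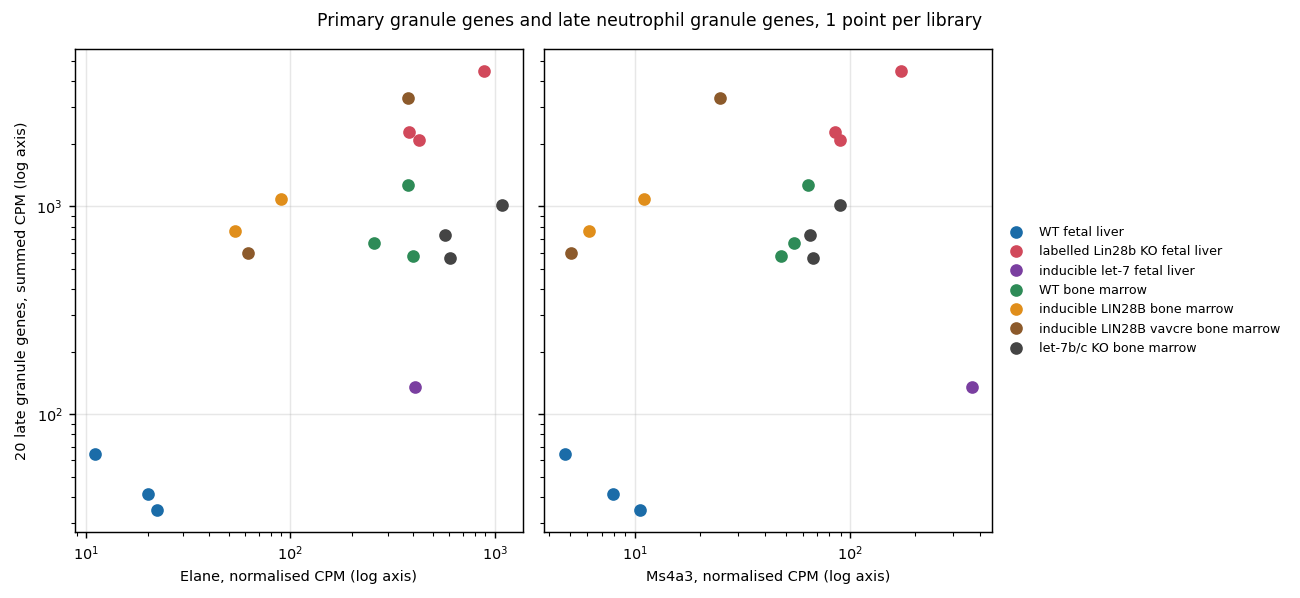
Summed CPM of 20 later granule genes against CPM of Elane (left) and Ms4a3 (right), log axes, 1 point per library. The inducible Let-7 library combines 365 CPM of Ms4a3 with 136 CPM of later granule messages, whereas the libraries labelled Lin28b knockout hold 84.8 to 171 CPM of Ms4a3 with 2077 to 4462 CPM.

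In bone marrow, 3 of the 5 messages were lower after LIN28B induction, taken as the mean of the groups with and without vavcre: Ms4a3 was 4.90-fold, Elane 2.75-fold and Ctsg 2.06-fold below wild-type bone marrow (n = 4 and 3). Called lower were 3 of 5 members, against 7.86% of all genes tested, with a median log2 difference of -1.04 for the members and -0.07 for all genes. The wild-type bone marrow libraries are the same as in the comparison with fetal liver.

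Ms4a3 stood at 10.99 and 6.13 CPM without vavcre and at 5.02 and 24.9 CPM with vavcre, against 47.6 to 63.4 CPM in the wild type. All 4 induced libraries were below the wild-type range, and the log2 difference was -2.29 (SE 0.410, edgeR adjusted p = 0.00242). Ctsg stood at 124 and 121 CPM without vavcre and at 108 and 126 CPM with it, against 202 to 291 CPM. The 4 values were close together and below the wild-type range, at -1.04 (SE 0.217, edgeR adjusted p = 0.00521). Elane stood at 90.2 and 53.6 CPM without vavcre and at 62.4 and 375 CPM with it, against 256 to 400.1 CPM. Vavcre library 6 lay inside the wild-type range and the other 3 libraries far below it; the log2 difference was -1.46 (SE 0.463, edgeR adjusted p = 0.0473). Leaving out any 1 library other than vavcre library 6 ended that call (adjusted p = 0.0519 to 0.143), and without vavcre library 6 the difference was -2.36 (adjusted p = 0.000943). Mpo and Prtn3 were below wild type without being called, at -0.49 (edgeR adjusted p = 0.0589) and -0.62 (0.0511).

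Vavcre library 6 also held 3313 CPM of later granule messages, against 595 CPM in vavcre library 4, 760 and 1088 CPM without vavcre and 577 to 1262 CPM in the wild type; S100a9 and Adam8 were at 0 in these groups. The part of those messages in the level of Elane was not tested. Within the vavcre group the 2 libraries differed 6.00-fold for Elane and 4.96-fold for Ms4a3, but 1.23-fold for Mpo, 1.24-fold for Prtn3 and 1.17-fold for Ctsg. Against wild-type bone marrow, the group without vavcre had 1 of 5 members called lower, Ms4a3 (log2 difference -2.70, edgeR adjusted p = 0.0323), against 0.295% of all genes tested. Mpo was 1.88-fold lower there without being called (adjusted p = 0.0530). The group with vavcre had 2 of 5 called lower, Ms4a3 (-1.88, adjusted p = 0.0128) and Ctsg (-1.08, adjusted p = 0.00795), against 14.3% of all genes.

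Between the 2 LIN28B groups, Mpo was the member called. It stood at 5728 and 5156 CPM without vavcre and at 8707 and 10689 CPM with it. The groups did not overlap, and Mpo was 1.78-fold higher with vavcre (log2 difference 0.83, SE 0.218, edgeR adjusted p = 0.0136; n = 2 and 2), a call that ended without library 5 of the group lacking vavcre (0.106) or without vavcre library 6 (0.0683). Called higher was 1 of 5 members and lower 0, where 9.37% of all genes tested were higher and 11.3% lower. That count is near those shares. Prtn3, at 292 and 249 CPM without vavcre and 378 and 468 CPM with it, did not overlap but was not called (0.64, edgeR adjusted p = 0.1002). Elane (1.61, adjusted p = 0.0839) and Ms4a3 (0.81, adjusted p = 0.335) were not called, and without vavcre library 6 they stood at -0.21 and -0.76. Ctsg was at -0.07 (edgeR adjusted p = 0.917).

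Among the progenitor genes outside the members, 12 of 24 tested fell and 1 rose after LIN28B induction, where 7.86% of all genes fell and 6.59% rose, with a median log2 difference of -0.58. Clec12a fell by 1.31, Cd24a by 1.09 and Calr, an endoplasmic reticulum chaperone that assists folding of myeloperoxidase, fell by 0.61 on the log2 scale. Of the other granule contents 2 of 19 fell and 0 rose, Prss57 (-0.86, edgeR adjusted p = 0.0214) and Psap (-3.34, adjusted p = 0.0229). Of the protease handling genes 3 fell and 2 rose, the latter Stfa1 and Stfa2. Of the transcription factors 2 rose, Jun and Egr1, and 0 fell; Spi1 stood at 160 ± 1.92 CPM without vavcre and 183 ± 16.7 CPM with it (n = 2 each), against 194 ± 10.1 CPM. Of the later granule genes 1 of 18 rose, Olfm4, and 0 fell. Of 17 tested monocyte markers 6 fell and 1 rose, and their sum was 370 to 385 CPM without vavcre and 420 to 499 CPM with it, against 555 to 655 CPM in the wild type, with Ctss and Lgals3 at 0 throughout; the part of monocyte precursors in the members' values was not tested.

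In the Let-7b/c knock-out bone marrow libraries Prtn3 was 1.86-fold higher than in wild-type bone marrow and the other 4 members, each higher by 1.33-fold to 2.20-fold in the fit, were not called (n = 3 and 3). Called higher was 1 of 5 members, against 1.33% of all genes tested, with a median log2 difference of 0.59 for the members and 0.00 for all genes. Strain differs with genotype here, and the 2 cannot be told apart.

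Prtn3 stood at 893, 1117 and 888 CPM, against 463 to 575 CPM in the wild type. No library overlapped, and the log2 difference was 0.90 (SE 0.216, edgeR adjusted p = 0.0414). The call ended when any 1 of knock-out libraries 1 and 2 or wild-type libraries 2, 5 and 6 was left out (adjusted p = 0.0604 to 0.154). Elane stood at 569, 1089.9 and 608 CPM against 256 to 400.1 CPM, without overlap, at 1.13 (SE 0.498, edgeR adjusted p = 0.307). Mpo stood at 13835, 16912 and 13563 CPM against 9493 to 11443 CPM, without overlap, at 0.53 (SE 0.177, adjusted p = 0.155). Ms4a3 stood at 65.0, 89.3 and 67.3 CPM against 47.6 to 63.4 CPM, just clear of each other, at 0.42 (SE 0.420, edgeR adjusted p = 0.725). Ctsg stood at 436, 395 and 284 CPM against 202 to 291 CPM, overlapping, at 0.59 (SE 0.233, adjusted p = 0.238).

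Of the other granule contents 6 of 19 rose in the knock-out and 0 fell, where 1.33% of all genes rose and 0.922% fell, among them Ctsz (1.65-fold), Lamp1 (1.45-fold) and Npc2 (1.46-fold), which are lysosomal proteins. Of the progenitor genes 3 of 24 rose and 0 fell: Emb (1.76-fold), Anxa3 (1.73-fold) and Igsf6 (1.93-fold). Monocyte markers rose in 7 of 17 and fell in 1. Their sum was 2326 to 2848 CPM against 555 to 655 CPM, with Ctss and Lgals3 at 0 in both groups, and Ccr2, the chemokine receptor of inflammatory monocytes, stood at 1471 ± 205 CPM against 59.7 ± 9.26 CPM. Later granule genes rose in 1 of 18 and fell in 0, with sums of 564 to 1013 CPM. The part of monocyte precursors in the members' values was not tested.

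Ordered by level, the groups did not line up the same way for each gene. For Mpo the order of the replicated groups ran from the Let-7b/c knock-out (14770.3 ± 1860 CPM) through wild-type bone marrow (10208 ± 1074) and LIN28B with vavcre (9698 ± 1402) to LIN28B without vavcre (5442 ± 405), wild-type fetal liver (5441 ± 769) and the libraries labelled Lin28b knockout (4046 ± 1326). Of these neighbours LIN28B with and without vavcre were called different. LIN28B without vavcre and wild-type fetal liver, a pair in which 21% of all genes were called, lay level for Mpo (log2 difference 0.00, SE 0.198, edgeR adjusted p = 1). Prtn3 ran from 966 ± 131 CPM in the Let-7b/c knock-out to 271 ± 30.7 CPM in LIN28B without vavcre; of its neighbours the Let-7b/c knock-out and wild-type bone marrow were called different. LIN28B with vavcre (423 ± 63.8 CPM) and the libraries labelled Lin28b knockout (404 ± 173 CPM) were adjacent for Prtn3 and differed by 0.06 on the log2 scale (adjusted p = 0.847), in a pair with 51.8% of all genes called.

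Elane ran from 756 ± 290 CPM in the Let-7b/c knock-out and 566 ± 281 CPM in the libraries labelled Lin28b knockout to 344 ± 77.7 CPM in wild-type bone marrow, 219 ± 221 CPM in LIN28B with vavcre and 71.9 ± 25.9 CPM without, and 17.8 ± 5.92 CPM in wild-type fetal liver. The last step was the one called between neighbours (LIN28B without vavcre against wild-type fetal liver, log2 difference 2.02, edgeR adjusted p = 0.0217). The top pair (edgeR adjusted p = 0.517) and the next (0.252) were not called different for Elane, although 47% and 47.8% of all genes were called in those pairs. Ctsg ran from 372 ± 78.8 to 49.7 ± 11.1 CPM, and its last step, from the libraries labelled Lin28b knockout (105 ± 41.0 CPM) to wild-type fetal liver, was called. Ms4a3 ran from 115 ± 48.6 CPM in the libraries labelled Lin28b knockout and 73.9 ± 13.4 CPM in the Let-7b/c knock-out to 55.3 ± 7.89 CPM in wild-type bone marrow. It was then 14.98 ± 14.1 CPM in LIN28B with vavcre, the called step, and 8.56 ± 3.44 CPM without vavcre and 7.71 ± 2.92 CPM in wild-type fetal liver.

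Ratios within a library remove the library's size and show how the members kept step. Prtn3 stayed between 4.34% and 10.8% of Mpo in all 17 libraries. Elane, by contrast, ranged from 0.231% to 0.426% of Mpo in wild-type fetal liver, from 2.69% to 3.89% in wild-type bone marrow and from 11.2% to 16.0% in the libraries labelled Lin28b knockout. Between the adjacent genes Elane and Prtn3, the count ratio was 0.0356 to 0.0564 in wild-type fetal liver and 0.552 to 0.771 in wild-type bone marrow. It was 1.28 to 1.47 in the libraries labelled Lin28b knockout, where Elane exceeded its neighbour, 0.638 to 0.975 in the Let-7b/c knock-out and 0.307 in the inducible Let-7 library. With LIN28B the ratio was 0.215 and 0.308 without vavcre, and 0.165 and 0.801 in vavcre libraries 4 and 6. Ms4a3 was 0.0982% to 0.202% of Mpo in wild-type fetal liver, 2.50% to 3.07% in the libraries labelled Lin28b knockout and 2.17% in the inducible Let-7 library.

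**Figure D4:**
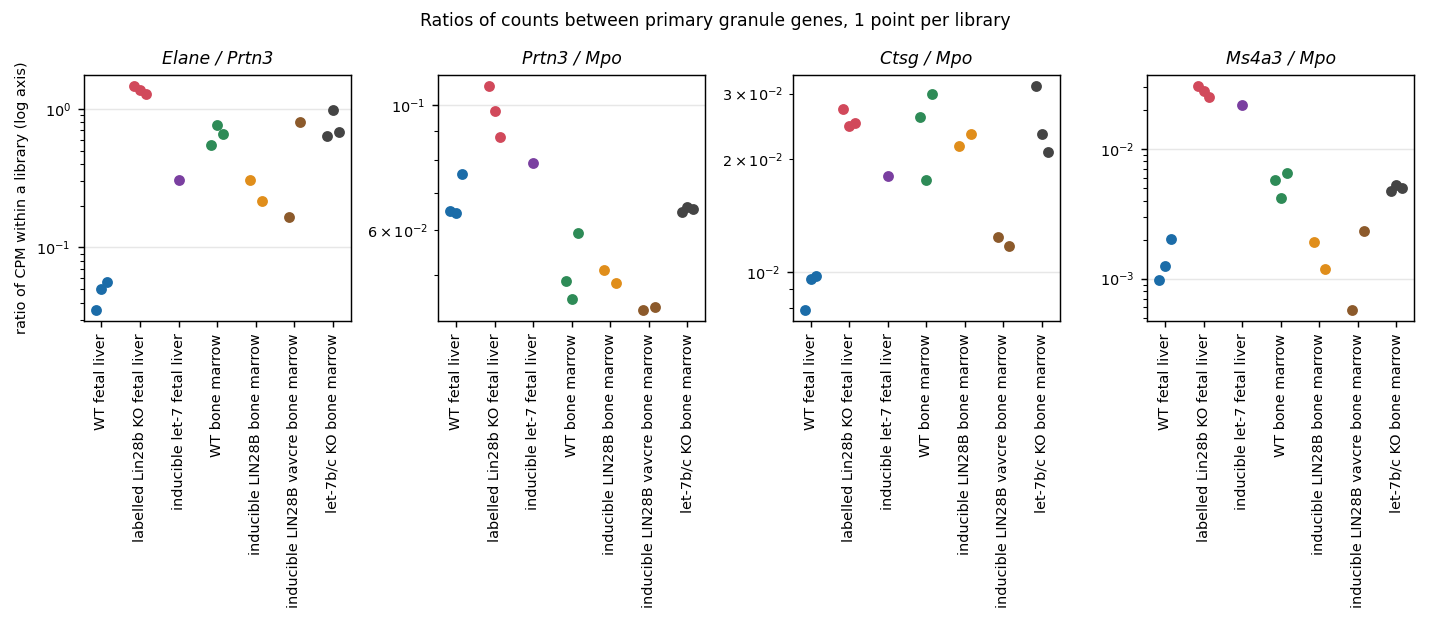
Ratios of CPM between members within each of the 17 libraries (log axes with different ranges), by group. Elane over Prtn3 runs from 0.0356 to 1.47, while Prtn3 over Mpo runs from 0.0434 to 0.108.

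Across the 17 libraries the closest pairs in log2 CPM were Elane with Ms4a3 (Pearson r = 0.866) and Mpo with Prtn3 (0.854), and the loosest was Mpo with Ms4a3 (0.357). In deviations from the group means, over the 16 libraries of replicated groups, the same pairs stood at 0.949, 0.912 and 0.613. These values describe libraries that share groups and depth, and carry no test.

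The gene most like the mean of the 5 members over the 17 libraries, among 6769 tested genes at 10 CPM or more, was Tifa (Pearson r = 0.938), followed by Mgst1 (0.937), Tmed3 (0.906), Clec12a (0.904), Cfp (0.886), Soat1 (0.877), Sgpl1 (0.876) and Trpv2 (0.874). Tifa, a signalling adaptor, ran from 29.3 ± 3.48 CPM in wild-type fetal liver to 115 ± 19.4 CPM in the Let-7b/c knock-out. In deviations from the group means over 16 libraries the closest were Plin3 (0.966), Tmed3 (0.949), Prdx5 (0.948), Tfec (0.935), Plod3 (0.927), Hp (0.919), Csf2rb (0.918) and Tbc1d2 (0.916). Plin3 had an r of -0.174 over all 17 libraries, so it followed the members within groups and not between them. Taken singly, Mpo was most like Atp8b4 (0.976), Prtn3 most like Anxa3 (0.971), Ctsg most like Tmed3 (0.969), Elane most like Ly6c2 (0.938) and Ms4a3 most like Daglb (0.910).

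The nearest neighbours on the chromosome were read beside the members. Of 32 protein-coding genes within 4 places of a member, 23 were tested. Of these, 1 rose and 6 fell in wild-type fetal liver against bone marrow, where 13.9% of all genes rose and 13.2% fell. In the libraries labelled Lin28b knockout 8 rose and 1 fell, where 20.8% of all genes rose and 23% fell. With LIN28B 0 rose and 2 fell (6.59% and 7.86% of all genes), and with vavcre against no vavcre 2 rose and 3 fell (9.37% and 11.3% of all genes), counts near those shares of 23. In the Let-7b/c knock-out 0 were called (1.33% and 0.922% of all genes). On the protease cluster of chromosome 10, Cfd, the complement factor D gene just beyond Elane, had 2 counts in all libraries together and Med16 had 0. Plppr3, on the other side of Prtn3, fell by 1.25 on the log2 scale in fetal liver (edgeR adjusted p = 0.00694). Beside Ctsg, Mcpt8, a basophil protease, fell by 3.27 in fetal liver and rose by 2.68 in the libraries labelled Lin28b knockout. Beside Mpo, the lactoperoxidase gene Lpo had 132 counts in all and was not called in the 5 comparisons, and Epx, eosinophil peroxidase, stood at 27.7 ± 7.19 CPM in the libraries labelled Lin28b knockout and at 0.246 ± 0.378 CPM in wild-type fetal liver (edgeR adjusted p = 0.0115). Beside Ms4a3, Ms4a6b fell by 1.41 in fetal liver and fell by 1.20 with LIN28B.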

How the data were processed

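Total RNA of flow-sorted progenitors was converted with a SMARTer ultra-low-input kit, per the labels' protocols. Of tools and builds, HTSeq, TopHat2, cutadapt and mm10 appear in the submitters' processing notes, without versions, order or strand setting. The authors deposited raw counts for each RefSeq transcript, without molecular identifiers. HTSeq's summary lines (8.87% to 19.3% of uniquely placed reads in no transcript, 23.8% to 29.8% ambiguous) were left out.

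Of 33818 accessions 33431 were named from RefSeq (GRCm38.p6) and 195 from GENCODE, and counts were summed over transcripts. The quasi-likelihood test of edgeR 4.0.16 (TMM scaling, filterByExpr) was run once over 7 group means, leaving 10 residual degrees of freedom, and p-values were adjusted by Benjamini-Hochberg over 13558 genes. The code was tested on simulated data. Members and lists were chosen with earlier results of these data known. Named were the members, up to 3 called genes per list by smallest adjusted p, set transcription factors, chromosome neighbours and the 8 genes most like the members. Further list members given as context (Prss57, Ctsc, Srgn, Ltf, Ngp, Lcn2, Cd177, Serpinb1a, Hp, Fcgr3, Nkg7 and Ccr2 among them) were chosen after their values were seen. Alternatives were other scalings and filters, DESeq2 1.42.0, other sets of libraries, left-out replicates and a replicate block. Some named genes are not reported here.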

Additional observations from a re-analysis of the deposited data

Results flagged for a closer look

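Mpo differed between the LIN28B groups: the log2 difference of induction with vavcre minus without was 0.83 (SE 0.218, edgeR adjusted p = 0.0136), higher in both vavcre libraries (n = 2 and 2). It was chosen because the same induction, set against the same wild-type bone marrow libraries, gave -0.91 without vavcre and -0.07 with vavcre, and the test of the difference itself was called. In that test 9.37% of all genes were called higher and 11.3% lower, so 1 call among 5 members is near those shares.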

How the results depend on the processing

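The 4 calls of fetal liver against bone marrow and those of Elane and Ms4a3 in the libraries labelled Lin28b knockout held under all alternatives run. Each other member call in the 5 comparisons so tested was lost under at least 1; calls of the LIN28B groups taken singly and of neighbouring pairs had no alternative run. Prtn3 in fetal liver against bone marrow became called with library totals alone (adjusted p = 0.0392), with only the compared groups (0.00385) and without the labelled group (0.0191). Mpo in the libraries labelled Lin28b knockout became called lower with library totals alone (0.00546), with no filter (0.0440) and without labelled library 3. For LIN28B induction 3 members were called, but 5 with no filter on low counts, 5 in the fit without the labelled Lin28b knockout group (an alternative added after seeing the data) and 2 to 5 with 1 library left out, 5 being the count without vavcre library 6. For vavcre against no vavcre 1 became 3 with no filter, 2 without the labelled group and 0 to 3 with 1 library left out (3 without vavcre library 4, 0 without vavcre library 6 or library 5 lacking vavcre). For the Let-7b/c knock-out 1 became 2 with no filter, without the labelled group and by DESeq2, and 0 to 1 with 1 library left out. Reversed were Prtn3 in the libraries labelled Lin28b knockout (-0.082 with library totals alone; -0.28 to 0.30 with 1 library left out, lowest without labelled library 3). In the vavcre contrast Ctsg was at 0.038 and Elane and Ms4a3 were at 2.39 and 1.55 without vavcre library 4, and Elane and Ms4a3 were reversed at -0.21 and -0.76 without vavcre library 6, as Ctsg was without library 4; the cause was not tested.

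No pairing by title number was seen: over 12 same-numbered pairs the correlation of deviations ran from -0.083 to 0.030. Deviations from the means of so few libraries are tied to each other, so these correlations cannot exclude a shared origin or batch. The replicate block added terms to the fit and left fewer residual degrees of freedom, so fewer calls do not by themselves show a replicate effect. Among calls it ended, Ctsg with LIN28B kept a log2 difference of -1.05 and Mpo with vavcre 0.87, while Elane with LIN28B moved from -1.46 to -1.22. With the replicate block 0 members were called for LIN28B, vavcre and the Let-7b/c knock-out and 2 for the labelled Lin28b knockout libraries, and calls over all genes went from 3677, 5941, 1958, 2799 and 305 to 2185, 3073, 274, 435 and 35, in the order of the report. With only the compared groups they were 1132 for LIN28B and 422 for vavcre, and DESeq2 gave 782 for the Let-7b/c knock-out. Leaving out 1 library took LIN28B to 1095 (wild-type library 2), 1206 (wild-type library 6) or 1166 (library 1 lacking vavcre), vavcre to 1376 (library 5 lacking it), and the Let-7b/c knock-out to between 96 and 191 (wild-type library 2, 5 or 6, or knock-out library 2). Library totals alone moved the median of all genes from -0.08 to -0.19 in fetal liver against bone marrow and from 0.00 to -0.19 for the labelled Lin28b knockout, and the higher and lower calls from 1887 and 1790 to 1407 and 2287, and from 2823 and 3118 to 2247 and 4111.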
